A study of Mus musculus with 6 samples.

Results

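Mitochondrial fatty acid oxidation and the making of ketone bodies were followed here through 33 genes, chosen by name for their place in the pathway. All 33 had a row in the liver tables, out of 16727 genes used, and they were arranged in 8 steps, from the regulators of the pathway to its ketone bodies. The livers came from F1 males, C57BL/6 and wild type (WT), kept on a normal chow diet and on water without inorganic arsenic (iAs). In the conF1-M group (3 mice) the fathers had drunk normal water, and in the iAsF1-M group (3 mice) the fathers had been given 250 ppb iAs in drinking water from weaning, for 6 weeks, before they were bred with unexposed females. All 6 livers were taken in the refed condition, after 7 h with food. The age and litter of the mice behind these libraries are not given in the sources used here, so the tests treat each mouse as independent. The comparison asks whether the paternal exposure went with other transcript levels of this pathway in the livers of the sons.

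The liver burns fatty acids mainly between meals. A fatty acid is joined to coenzyme A, carried into the mitochondrion as an acylcarnitine, and shortened there in a repeating cycle of dehydrogenation, hydration, a further dehydrogenation and thiolysis, each turn releasing acetyl-CoA. In fasting, hepatocytes turn much of that acetyl-CoA into ketone bodies for other organs, and after a meal insulin and malonyl-CoA, the inhibitor of the carnitine gate, hold the pathway back. Many of its genes are targets of PPARα, a nuclear receptor that is activated by fatty acids.

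The sequences around the RefSeq starts of 3 of the genes are shown first, because Hadha and Hadhb, which encode the 2 subunits of the mitochondrial trifunctional protein, start next to each other on opposite strands and had near-equal levels, and because Cpt1a, the carnitine gate, had the highest fold change among the abundant genes. Each window runs from 250 bases before to 50 bases after the RefSeq start (GRCm38.p6) and is written on the strand of its gene. The windows of Hadhb (chr5:30155003-30155302, plus strand) and Hadha (chr5:30154931-30155230, minus strand) share 228 bases, and the start sites lie 273 bases apart. Capitals mark GGGCGG, the GC box, on either strand in Hadhb, where it occurs 4 times, and in Hadha, where it occurs 1 time. In Cpt1a (chr19:3323051-3323350, plus strand) capitals mark the 1 match to AGGTCA, the hexamer that nuclear receptors recognise, which lies on the opposite strand. GENCODE, from which the gene positions given further on are taken, starts Cpt1a and Hadha further upstream, so the Cpt1a window lies inside that gene model.
Hadhb: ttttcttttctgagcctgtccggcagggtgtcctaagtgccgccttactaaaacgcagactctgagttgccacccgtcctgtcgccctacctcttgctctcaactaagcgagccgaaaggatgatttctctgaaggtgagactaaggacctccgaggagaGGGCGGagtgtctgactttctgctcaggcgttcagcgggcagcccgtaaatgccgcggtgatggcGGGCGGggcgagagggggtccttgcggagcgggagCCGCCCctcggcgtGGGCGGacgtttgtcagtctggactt
Hadha: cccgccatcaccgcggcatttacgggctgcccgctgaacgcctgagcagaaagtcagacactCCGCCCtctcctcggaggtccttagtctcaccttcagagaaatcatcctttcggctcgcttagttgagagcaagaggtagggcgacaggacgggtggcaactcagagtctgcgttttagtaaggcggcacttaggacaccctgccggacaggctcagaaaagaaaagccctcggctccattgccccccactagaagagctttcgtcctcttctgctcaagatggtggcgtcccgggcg
Cpt1a: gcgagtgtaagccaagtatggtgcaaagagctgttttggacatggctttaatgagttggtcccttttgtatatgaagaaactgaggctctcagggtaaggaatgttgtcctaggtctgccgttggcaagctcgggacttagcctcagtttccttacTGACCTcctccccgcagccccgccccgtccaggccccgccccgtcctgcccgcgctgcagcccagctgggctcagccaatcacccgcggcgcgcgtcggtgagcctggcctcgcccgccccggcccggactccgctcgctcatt

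RefSeq windows were found for 28 of the 33 genes. On both strands, GGGCGG was present in 20 of these 28 windows and in 35.7% of all 32851 windows, CCAAT in 12 against 37.4%, and TATAAA in 0 against 13.6%. AGGTCA was present in 4 of the 28, those of Acadm, Acadvl, Cpt1a and Echs1, against 16.3% of all windows. These are matches of letters in short windows and say nothing on whether a factor binds there.

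The values are FPKM, fragments scaled to the length of the transcript and the size of the library, so levels can be set side by side between genes. FPKM are shares of a library, so a small difference between livers depends also on the scaling between them. For each gene the 3 conF1-M and then the 3 iAsF1-M values are given in the order of the sample numbers, and a fold change is iAsF1-M over conF1-M on the scale of log2(FPKM + 1), with its standard error (SE) and 95% interval from limma. Each adjusted p is Benjamini-Hochberg over the 9695 genes whose mean reached 1 FPKM, and 0.05 is the threshold. Of the 33 genes 32 were in that test and Oxct1 was below the limit.

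The libraries were of like depth, at an estimated 22150000 to 24100000 fragments, but the livers of the iAsF1-M group were unlike each other. Over all genes iAsF1-M 3 lay closer to the conF1-M livers (mean Euclidean distance 28.0 on the log2 scale) than to the other iAsF1-M livers (35.0). Summed hepatocyte markers (9 genes, among them Alb and Cps1) were 57200 to 61100 FPKM in conF1-M and 48300 to 65200 FPKM in iAsF1-M. Of 7 measured markers of skeletal and heart muscle, all were under 0.1 FPKM in every liver and 1 was at 0. All 8 markers of sinusoidal endothelial cells were tested, and 7 were lower in iAsF1-M, while 30.4% of all genes tested were higher. Of the 7, 5 were lower without overlap, against 11.8% of all genes tested. The sum of the 8 was 66.3 to 85.7 FPKM in conF1-M and 49.7 to 58.6 FPKM in iAsF1-M. These are whole livers, in which fewer cells of a type and less RNA per cell cannot be told apart.

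None of the 32 genes tested differed between the groups past the threshold. Their adjusted p ran from 0.59 to 0.99, while 6 of the 9695 genes passed, which is 0.0619%. At an unadjusted p under 0.05, 1 of the 32 was found, Sirt3, against 8.17% of all genes. Higher in iAsF1-M were 12 genes and lower were 20, and of all genes tested 30.4% were higher. The median log2 fold change of the 32 genes was -0.05 and that of all 9695 genes was -0.07, so the list lay close to the shift of the whole table. A TMM-like scaling, which sets the livers to a common level by a trimmed mean of ratios, moved the median of all genes to about 0 (-0.003), and then the list had a median of 0.03 with 23 of 32 genes higher, against 48.9% of all genes. The sign of a small difference in this pathway therefore depended on the scaling between livers. The groups did not overlap for 1 tested gene that was lower in iAsF1-M, Sirt3, against 11.8% of all genes, and for 0 that were higher, against 2.37%.

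The 95% intervals show how large a difference these 6 livers leave possible. For 23 of the 32 genes the 95% interval of the log2 fold change lay within 0.5 on either side of 0, for 30 within 0.75, and for 31 within 1, the exception being Pdk4. The 9 genes whose interval reached beyond 0.5 were Sirt3, Pdk4, Slc22a5, Cpt1a, Cpt1b, Crat, Acad10, Echs1 and Hadh.

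**Figure D1:**
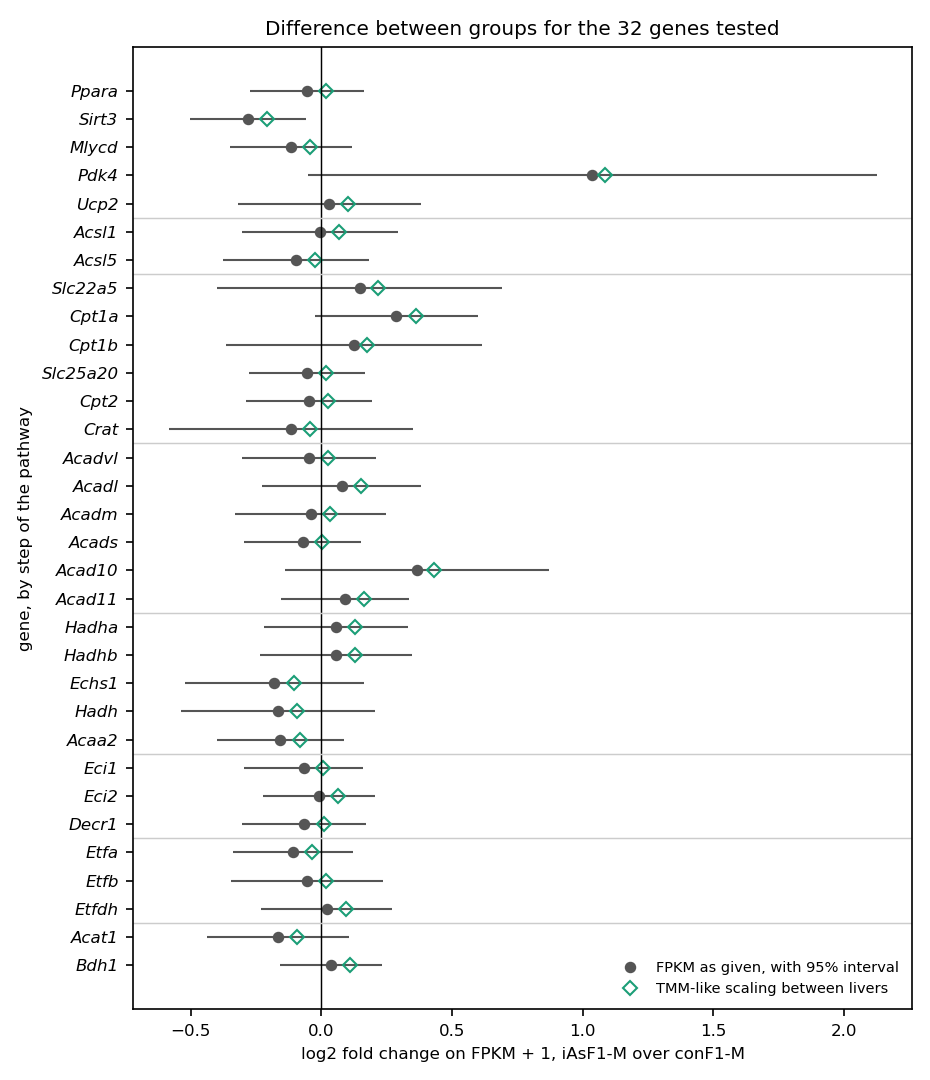
Log2 fold change of the 32 genes tested, iAsF1-M over conF1-M on log2(FPKM + 1), ordered by step. Grey points with bars are the values as given with 95% intervals (3 livers per group) and open green diamonds are the values after TMM-like scaling; the Sirt3 interval alone leaves out 0, and Pdk4 has the widest.

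In level the genes spanned a wide range, and most were abundant. Across the 6 livers 20 of the 33 had a mean of at least 100 FPKM and 27 of at least 30 FPKM, while 4 were under 10 FPKM, namely Acad10, Pdk4, Cpt1b and Oxct1. Acsl1 came first with a mean of 704 FPKM, followed by Acaa2 (460 FPKM) and Etfb (270.1 FPKM), and the ranges of Acsl1 (629 to 795 FPKM), Acaa2 (401 to 506 FPKM) and Etfb (227 to 302 FPKM) did not overlap. The next genes overlapped, with Acadm at 201 to 265 FPKM, Hadh at 182 to 275 FPKM, Eci2 at 214 to 239 FPKM and Cpt1a at 162 to 254 FPKM. Further down, neighbours in the order overlapped except for Eci1 and Echs1, Bdh1 and Acads, Mlycd and Slc22a5, and Ucp2 and Acad10. The highest liver was less than 1.5 times the lowest for 24 of the 32 tested genes (75.0%), against 68.1% of all genes tested, and more than 2 times it for 3 (9.38%), Pdk4, Cpt1b and Acad10, against 9.99%.

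**Figure D2:**
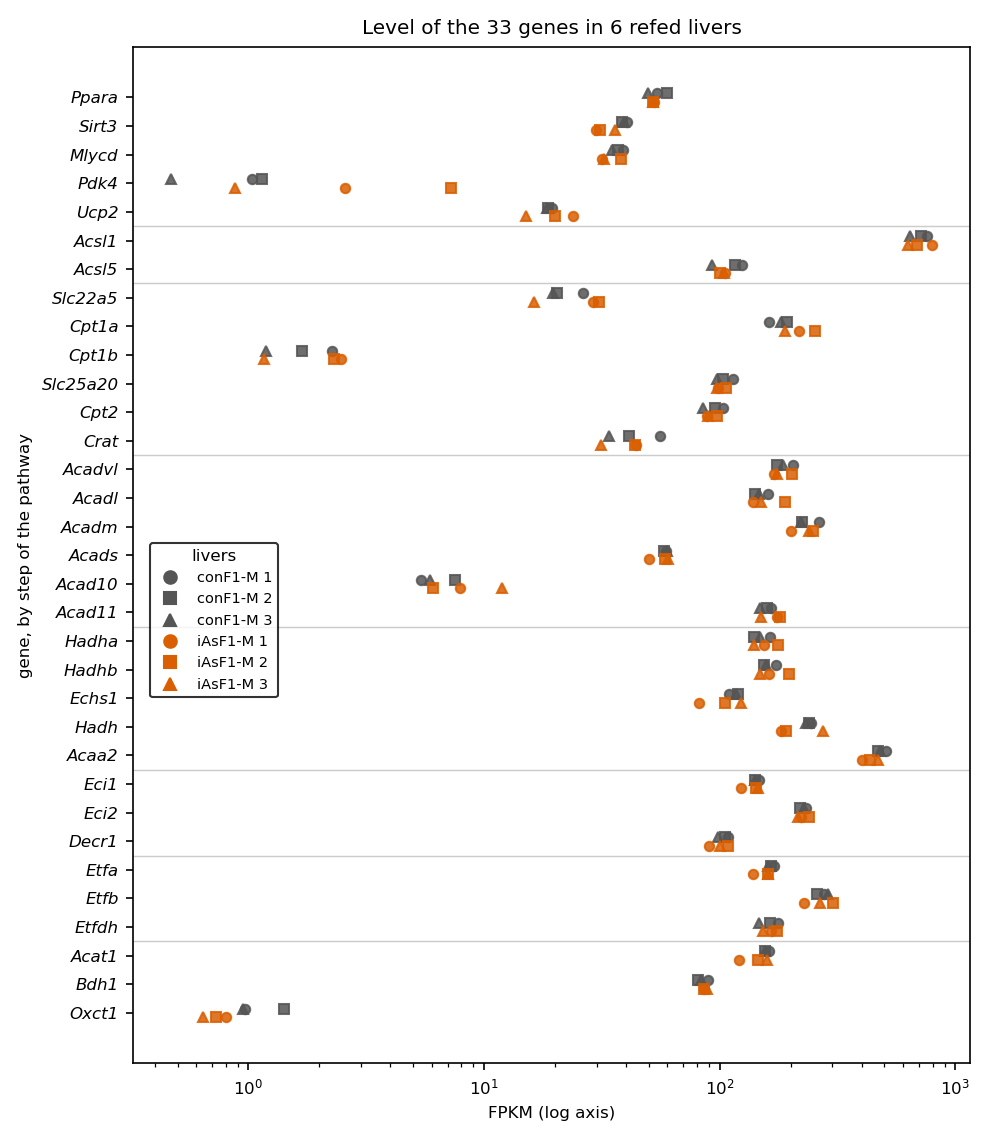
FPKM (log axis) of the 33 genes in each of the 6 livers, ordered by step, with conF1-M in grey and iAsF1-M in orange and the sample number as the shape. Of the genes 27 have a mean of at least 30 FPKM, the groups overlap for all genes but Sirt3 and Oxct1, Acsl1 stands at the top, and Pdk4, Cpt1b and Oxct1 lie near or below 2 FPKM.

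Among the 5 regulators and gatekeepers, Ppara was the most abundant and its groups overlapped. It encodes PPARα and measured 54.2, 59.6 and 49.5 in conF1-M against 52.5, 52.1 and 52.1 FPKM in iAsF1-M. The iAsF1-M values lay within the conF1-M range and much closer to each other than the conF1-M values, and the log2 fold change was -0.05 (SE 0.09, 95% interval -0.27 to 0.16, adjusted p = 0.86). Ppara lies at chr15:85734983-85802819 (plus strand, GRCm38).

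Sirt3, the main deacetylase of mitochondrial proteins, which acts on enzymes of fatty acid oxidation among others, was the gene with the smallest p. Its level was 40.3, 38.4 and 39.2 in conF1-M against 29.8, 31.03 and 35.97 FPKM in iAsF1-M. Every iAsF1-M liver was below every conF1-M liver, the conF1-M mean being 39.3 ± 0.950 FPKM (SD, n = 3) and the iAsF1-M mean 32.3 ± 3.27 FPKM (SD, n = 3). The log2 fold change was -0.28 (SE 0.10, 95% interval -0.50 to -0.06, adjusted p = 0.59), so the difference did not pass over all genes, and under TMM-like scaling the fold change was -0.21. The gene lies at chr7:140863666-140882309 (minus strand, GRCm38), and its ends overlap Psmd13, a proteasome gene, and Ric8a on the other strand. The counting is not stated to use strand, so reads from the overlaps cannot be told apart. Psmd13 measured 33.02, 30.3 and 31.3 in conF1-M against 30.7, 34.6 and 26.8 FPKM in iAsF1-M, and Ric8a 4.69, 6.35 and 4.84 in conF1-M against 5.03, 5.37 and 4.94 FPKM in iAsF1-M, and the groups overlapped for both.

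Pdk4, the kinase that shuts pyruvate dehydrogenase and is known as a fasting-induced PPARα target, was low in all livers but varied more than any other gene of the list. It measured 1.04, 1.14 and 0.47 in conF1-M against 2.57, 7.26 and 0.88 FPKM in iAsF1-M. The highest and the next highest values were in iAsF1-M livers 2 and 1, iAsF1-M 3 was inside the conF1-M range, and the highest liver was 15.4 times the lowest. Pdk4 is described in full because its spread was seen, and its log2 fold change was 1.04 (SE 0.47, 95% interval -0.05 to 2.12, adjusted p = 0.62). Without iAsF1-M 2 the value was 0.48, without iAsF1-M 3 it was 1.55 (adjusted p = 0.087), and with a pseudocount of 0.1 in place of 1 it was 1.53.

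The other 2 genes of this step lay closer together. Mlycd, the decarboxylase that removes malonyl-CoA, measured 38.8, 36.9 and 34.9 in conF1-M against 31.7, 38.2 and 32.3 FPKM in iAsF1-M, and iAsF1-M livers 1 and 3 were the lowest. Ucp2, a carrier of the mitochondrial inner membrane, measured 19.4, 18.7 and 18.5 in conF1-M against 23.8, 19.9 and 15.1 FPKM in iAsF1-M, so that the highest and the lowest liver were both iAsF1-M.

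In the activation step, Acsl1 and Acsl5 encode the long-chain acyl-CoA synthetases that join fatty acids to coenzyme A. Acsl1, the most abundant of the 33, measured 756, 718 and 639 in conF1-M against 795, 686 and 629 FPKM in iAsF1-M. The groups overlapped almost fully, and the log2 fold change was -0.01 (SE 0.13, 95% interval -0.31 to 0.29, adjusted p = 0.99). Acsl5 measured 124, 116 and 93.1 in conF1-M against 105, 99.8 and 104 FPKM in iAsF1-M. The conF1-M livers lay on both sides of the narrow iAsF1-M range, and the log2 fold change was -0.10 (SE 0.12, 95% interval -0.38 to 0.18, adjusted p = 0.81). It was -0.01 without conF1-M 1 and -0.22 without conF1-M 3. Within a liver Acsl1 was 6.05 to 7.56 times Acsl5, and the ratio did not separate the groups (exact permutation test, two-sided p = 0.6).

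The carnitine shuttle held the gene with the highest fold change among those over 10 FPKM. Cpt1a encodes the carnitine palmitoyltransferase of the outer mitochondrial membrane in liver, the gate that malonyl-CoA inhibits. It measured 162, 194 and 182 in conF1-M against 216, 254 and 189 FPKM in iAsF1-M. The iAsF1-M livers 1 and 2 were above all conF1-M livers and iAsF1-M 3 was within their range. The log2 fold change was 0.29 (SE 0.13, 95% interval -0.02 to 0.60, adjusted p = 0.62). Under TMM-like scaling it was 0.36, and leaving out each liver in turn gave 0.18 (without iAsF1-M 2) to 0.39 (without iAsF1-M 3). Cpt1a lies at chr19:3322334-3385733 (plus strand, GRCm38), and its window is the last of the sequences above.

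Set against Cpt2, the partner enzyme inside the mitochondrion, Cpt1a was 1.56, 2.03 and 2.13 times as high in conF1-M and 2.46, 2.60 and 2.12 times as high in iAsF1-M. Such a ratio within a liver does not depend on a scaling between livers. iAsF1-M 3 again fell between conF1-M livers 2 and 3, and the log2 ratio differed by 0.34 (exact permutation test, two-sided p = 0.2, where 0.1 is the smallest that 3 against 3 allows). This ratio was 1 of 5 compared between partner genes, and since none could pass the threshold they are given as descriptions.

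In the rest of the shuttle the groups overlapped for every gene. Slc22a5, the plasma membrane carrier of carnitine, measured 26.4, 20.4 and 19.6 in conF1-M against 29.0, 30.8 and 16.2 FPKM in iAsF1-M, with the highest 2 livers and the lowest in iAsF1-M. Slc25a20, which exchanges acylcarnitine for carnitine across the inner membrane, measured 114, 103 and 97.3 in conF1-M against 98.4, 106 and 97.7 FPKM in iAsF1-M. Cpt2 measured 104, 95.6 and 85.2 in conF1-M against 87.9, 97.6 and 88.8 FPKM in iAsF1-M. The groups overlapped in both, and the ranges were narrow. Crat, which attaches acetyl groups to carnitine, measured 55.8, 41.1 and 33.9 in conF1-M against 44.3, 43.8 and 31.3 FPKM in iAsF1-M, the highest liver being conF1-M 1 and the lowest iAsF1-M 3. Cpt1b, the isoform of muscle and heart, was scarce at 2.26, 1.68 and 1.19 in conF1-M against 2.46, 2.31 and 1.16 FPKM in iAsF1-M. Cpt1a was 71.5 to 162.5 times as high as Cpt1b, and the muscle markers given above were near 0. A read-through model on the same strand, Gm44502, overlaps Cpt1b, so its low values are uncertain.

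The 6 acyl-CoA dehydrogenases take the first hydrogen pair off the acyl chain, each at its own chain length. Acadm, the medium-chain enzyme and the most abundant of them, measured 265, 223 and 221 in conF1-M against 201, 249 and 239.9 FPKM in iAsF1-M. The conF1-M 1 liver was highest and iAsF1-M 1 lowest, and the log2 fold change was -0.04 (SE 0.12, 95% interval -0.33 to 0.25, adjusted p = 0.92). Acadvl, the very-long-chain enzyme of the inner membrane, measured 205, 175 and 185 in conF1-M against 170.1, 202 and 174 FPKM in iAsF1-M. Acadl, the long-chain enzyme, measured 160.2, 141 and 147 in conF1-M against 139, 189 and 149 FPKM in iAsF1-M. Acads, the short-chain enzyme, measured 58.9, 57.95 and 59.9 in conF1-M against 50.2, 58.4 and 60.04 FPKM in iAsF1-M. In these 3 the groups overlapped, and iAsF1-M 1 was the lowest liver each time. Acadm was 3.69 to 4.49 times Acads in all livers.

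Acad10 and Acad11 are family members with less settled roles. Acad10 was the scarcest of the 6 at 5.41, 7.56 and 5.91 in conF1-M against 7.91, 6.05 and 11.9 FPKM in iAsF1-M. The iAsF1-M 3 liver stood highest, iAsF1-M 2 was within the conF1-M range, and the log2 fold change was 0.37 (SE 0.22, 95% interval -0.14 to 0.87, adjusted p = 0.62), which was 0.13 without iAsF1-M 3 and 0.57 without iAsF1-M 2. It was the gene of this step with the smallest p, and here the liver that stood out was not one of the 2 that were high in Cpt1a and Pdk4. Acad11 measured 165, 159 and 149 in conF1-M against 175, 179 and 150.3 FPKM in iAsF1-M, highest in iAsF1-M livers 1 and 2 and overlapping between groups, and a model on the same strand, Gm28305, overlaps it.

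The trifunctional protein carries out the next reactions on long chains, with the hydratase and dehydrogenase on the Hadha subunit and the thiolase on Hadhb. Hadha measured 164, 139 and 148 in conF1-M against 154, 177 and 139 FPKM in iAsF1-M. Hadhb measured 173, 155 and 157 in conF1-M against 161, 197 and 149 FPKM in iAsF1-M. Both were highest in iAsF1-M 2, next in conF1-M 1, and overlapped between groups, with log2 fold changes of 0.06 each and adjusted p of 0.89 each. The ratio of Hadha to Hadhb was 0.945, 0.901 and 0.943 in conF1-M and 0.956, 0.895 and 0.937 in iAsF1-M, so the 2 subunits kept to within 0.895 to 0.956 of each other while their levels differed by up to 1.27 and 1.33 times between livers. The ratio did not separate the groups (exact permutation test, two-sided p = 1.0). In GENCODE the gene bodies stand head to head with a gap of 85 bases, and the Hadhb window shown above covers that gap.

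**Figure D3:**
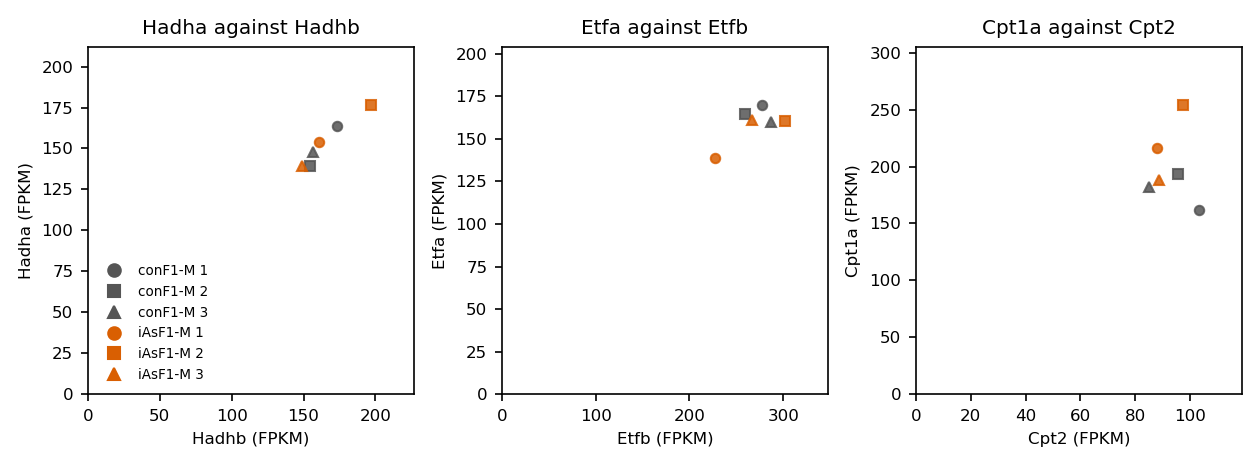
FPKM of Hadha against Hadhb, Etfa against Etfb and Cpt1a against Cpt2, 1 point per liver (conF1-M grey, iAsF1-M orange, sample number as the shape), with axes from 0. The Hadha and Hadhb points follow a line through 0 (ratio 0.895 to 0.956), whereas the ratio of Cpt1a to Cpt2 runs from 1.56 to 2.60.

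Shorter chains pass to separate matrix enzymes, and for these iAsF1-M 1 was the lowest liver each time. Acaa2, the thiolase that releases acetyl-CoA from medium chains and the second most abundant gene of the 33, measured 506, 469.6 and 478 in conF1-M against 401, 434 and 469.8 FPKM in iAsF1-M. The iAsF1-M livers 1 and 2 were below all conF1-M livers, iAsF1-M 3 was just above conF1-M 2, and the log2 fold change was -0.16 (SE 0.10, 95% interval -0.40 to 0.09, adjusted p = 0.66). Without iAsF1-M 1 it was -0.10. Echs1, the short-chain enoyl-CoA hydratase, measured 109.8, 119.9 and 117 in conF1-M against 81.99, 105 and 123 FPKM in iAsF1-M. Hadh, the dehydrogenase of medium and short chains, measured 244, 240.1 and 232 in conF1-M against 182, 192 and 275 FPKM in iAsF1-M. In both, iAsF1-M livers 1 and 2 were below all conF1-M livers and iAsF1-M 3 was above them all, so the iAsF1-M group held both ends of the range. Their log2 fold changes were -0.18 for Echs1 (adjusted p = 0.72) and -0.17 for Hadh (adjusted p = 0.75).

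Unsaturated chains need the auxiliary enzymes, which move or remove double bonds. Eci2, an enoyl-CoA isomerase, measured 232, 220.0 and 227 in conF1-M against 222, 239 and 214 FPKM in iAsF1-M. It was one of the steadiest genes, with the highest liver 1.12 times the lowest, and the log2 fold change was -0.01 (SE 0.09, 95% interval -0.23 to 0.20, adjusted p = 0.97). Eci1, the other isomerase, measured 147, 141 and 141 in conF1-M against 123, 143 and 145 FPKM in iAsF1-M. Only iAsF1-M 1 was below the conF1-M range, and the log2 fold change was -0.07 (SE 0.10, 95% interval -0.29 to 0.16, adjusted p = 0.83). Decr1, the dienoyl-CoA reductase, measured 109, 105 and 98.1 in conF1-M against 89.8, 109 and 99.9 FPKM in iAsF1-M, with iAsF1-M 1 lowest and the groups overlapping. The ratio of Eci1 to Eci2 was 0.622 to 0.642 in conF1-M and 0.556 to 0.676 in iAsF1-M (exact permutation test, two-sided p = 0.6).

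Electrons from the acyl-CoA dehydrogenases leave through the electron transfer flavoprotein, whose subunits are Etfa and Etfb, to Etfdh and the respiratory chain. Etfb measured 277, 259 and 287 in conF1-M against 227, 302 and 267 FPKM in iAsF1-M. The iAsF1-M livers held both the highest and the lowest value, and the log2 fold change was -0.06 (SE 0.13, 95% interval -0.35 to 0.23, adjusted p = 0.89). Etfa measured 170.1, 165 and 160.0 in conF1-M against 139, 160.5 and 161 FPKM in iAsF1-M. Again iAsF1-M 1 was lowest, the other iAsF1-M livers were inside the conF1-M range, and the log2 fold change was -0.11 (SE 0.10, 95% interval -0.34 to 0.12, adjusted p = 0.74). Without iAsF1-M 1 it was -0.04. Etfdh measured 176, 164 and 146 in conF1-M against 165, 175 and 152 FPKM in iAsF1-M, within the same range in both groups. The ratio of Etfa to Etfb was 0.531 to 0.636 over the 6 livers (exact permutation test between groups, two-sided p = 0.5). A model on the same strand, Gm45233, overlaps Etfb.

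Of the ketone body genes, Acat1, the mitochondrial thiolase that interconverts acetyl-CoA and acetoacetyl-CoA, measured 161, 155 and 156 in conF1-M against 120.2, 145 and 158 FPKM in iAsF1-M. The iAsF1-M livers 1 and 2 were below all conF1-M livers and iAsF1-M 3 was among them, and the log2 fold change was -0.17 (SE 0.12, 95% interval -0.44 to 0.11, adjusted p = 0.67). Without iAsF1-M 1 it was -0.06, and without iAsF1-M 3 it was -0.25. Bdh1, which reduces acetoacetate to beta-hydroxybutyrate, measured 89.4, 80.9 and 83.04 in conF1-M against 85.95, 86.01 and 87.9 FPKM in iAsF1-M. It was the steadiest of the 33, the highest liver being 1.10 times the lowest, with a log2 fold change of 0.04 (95% interval -0.16 to 0.23).

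Oxct1, the enzyme by which other organs use ketone bodies and which hepatocytes are known to lack, was close to 1 FPKM at 0.97, 1.42 and 0.95 in conF1-M against 0.8, 0.73 and 0.64 FPKM in iAsF1-M. Every iAsF1-M liver was below every conF1-M liver, as in 11.8% of the genes tested at a mean of at least 1 FPKM. The conF1-M mean was 1.11 ± 0.266 FPKM (SD, n = 3) and the iAsF1-M mean 0.723 ± 0.0802 FPKM (SD, n = 3). With the limit lowered to a mean of 0.1 FPKM, which let 12802 genes in, its log2 fold change was -0.29 (SE 0.10, unadjusted p = 0.024, adjusted p = 0.56). Lower in iAsF1-M as well were 7 of the 8 endothelial markers given above and all 5 tested of the 8 stellate markers, while 30.4% of all genes tested were higher. The summed stellate level was 92.9 to 127 FPKM in conF1-M and 89.0 to 95.4 FPKM in iAsF1-M, with no marker at 0. Of 7 Kupffer cell markers 5 were lower and 2 higher, and of 9 hepatocyte markers 3 were lower and 6 higher. The part of these cells in the result was not tested.

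A further 35 genes of fatty acid oxidation and ketone bodies were listed, peroxisomal and acyl-CoA thioesterase genes among them, and 28 were tested. Of these 7 were higher, 21 were lower and 0 passed the threshold or an unadjusted p under 0.05, with a median log2 fold change of -0.08, while 30.4% of all genes were higher. Under TMM-like scaling 14 were higher and the median was -0.002, and without iAsF1-M 3 the median was -0.15. Acot9, a mitochondrial thioesterase, had the smallest p and measured 1.39, 1.49 and 1.46 in conF1-M against 1.02, 1.06 and 1.35 FPKM in iAsF1-M. Its groups did not overlap, and the log2 fold change was -0.19 (adjusted p = 0.62). Of the 28 genes, 2 were lower without overlap, against 11.8% of all genes tested, and 0 were higher, against 2.37%. Next came Acsl4, a synthetase that prefers arachidonate, with 0.52, and Etfbkmt, the methyltransferase that acts on Etfb, with -0.40, and in both the groups overlapped.

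Of 24 regulators of the pathway 23 were tested, with 13 higher, 10 lower and 0 past the threshold, while 30.4% of all genes tested were higher. Their median was 0.04, which became -0.03 without iAsF1-M 3 and -0.01 without iAsF1-M 2. Acacb, whose malonyl-CoA inhibits the carnitine gate, was the only one with an unadjusted p under 0.05. It measured 3.34, 3.65 and 3.09 in conF1-M against 4.26, 8.78 and 4.49 FPKM in iAsF1-M, every iAsF1-M liver being above every conF1-M liver. The log2 fold change was 0.59 (SE 0.22, adjusted p = 0.59) and was 0.30 without iAsF1-M 2. Of the 23 genes, 2 were higher without overlap, against 2.37% of all genes tested, and 0 were lower, against 11.8%. Lpin1, a phosphatase and partner of PPARα, measured 8.39, 14.7 and 21.8 in conF1-M against 13.3, 114 and 33.8 FPKM in iAsF1-M, with iAsF1-M 2 far above the rest, and Acaca, the cytosolic carboxylase, measured 5.96, 6.5 and 6.3 in conF1-M against 4.52, 4.0 and 6.83 FPKM in iAsF1-M. Neither of these separated the groups.

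Other known PPARα targets, outside the oxidation enzymes, leaned higher but rested on iAsF1-M 2. Of 21 tested 16 were higher and 5 lower, while 30.4% of all genes tested were higher. An unadjusted p under 0.05 was reached by 0, and the median log2 fold change of 0.18 became -0.06 without iAsF1-M 2 and 0.34 without iAsF1-M 3. Angptl4, a secreted inhibitor of lipoprotein lipase, measured 55.8, 59.1 and 62.6 in conF1-M against 79.3, 103 and 60.2 FPKM in iAsF1-M. Cidec, a lipid droplet protein, measured 4.14, 4.08 and 3.11 in conF1-M against 8.85, 21.95 and 3.15 FPKM in iAsF1-M. In both, iAsF1-M 2 was highest, iAsF1-M 1 next and iAsF1-M 3 inside the conF1-M range, the order that Cpt1a and Pdk4 had. The third by p was Cyp4a10, a microsomal fatty acid hydroxylase, with 0.47.

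A reference list of 36 genes for other mitochondrial functions, such as the citrate cycle and the respiratory chain, had 16 higher, 20 lower, 0 with an unadjusted p under 0.05 and a median of -0.02. Of all genes tested 30.4% were higher. Under TMM-like scaling 25 of the 36 were higher, against 48.9% of all genes, and without iAsF1-M 2 the median was -0.10. The 3 smallest p were those of Cs, citrate synthase, with -0.22, Tfam, the packaging factor of mitochondrial DNA, with -0.20, and Sdha, a subunit of succinate dehydrogenase, with -0.14. The oxidation and ketone genes thus had a median close to that of the reference list and of all genes, as given and after TMM-like scaling (0.03, 0.05 and -0.003).

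Between single livers the list moved more than between groups. As a median difference from the conF1-M mean on the log2 scale, the 32 genes stood at 0.07, -0.01 and -0.04 in conF1-M and at -0.08, 0.05 and -0.06 in iAsF1-M, so that both groups spanned 0. The reference list stood at -0.01, 0.01 and -0.01 in conF1-M and at -0.21, 0.11 and -0.01 in iAsF1-M. All genes tested stood at 0.03, 0.02 and -0.05 in conF1-M and at -0.10, -0.05 and -0.04 in iAsF1-M. Beside all genes, both lists were high in iAsF1-M 2. In iAsF1-M 1 the reference list was below all genes and the 32 genes were close to them. Of the 33 genes 14 (42.4%) had their highest value in conF1-M 1, against 30.9% of all genes tested, and 10 (30.3%) in iAsF1-M 2, against 19.8%. The lowest value was in iAsF1-M 1 for 14 (42.4%), against 32.6%, and in iAsF1-M 2 for 0, against 20.2%.

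In conF1-M 1 the median of every step was above 0 and in conF1-M 3 that of every step was below 0. All genes tested had the same signs in these livers (0.03 and -0.05). In each iAsF1-M liver the steps had different signs. The differences are taken from the conF1-M mean, so those of the conF1-M livers sum to 0 for each gene. The signs of the steps can therefore not be compared between the groups. In iAsF1-M 1 the 6 carnitine shuttle genes had a median of 0.16 while the 5 genes of hydration, the second dehydrogenation and thiolysis had -0.27 and the 3 electron transfer genes -0.25. In iAsF1-M 3 the shuttle genes were at -0.20 and the genes of hydration to thiolysis at -0.04. Between the groups the median log2 fold change was 0.04 for the shuttle, 0.02 for the acyl-CoA dehydrogenases, -0.16 for hydration to thiolysis, -0.06 for the auxiliary enzymes, -0.06 for electron transfer, -0.06 for the ketone body genes, -0.05 for the regulators and -0.05 for activation. Without iAsF1-M 2 the shuttle was at -0.05 and the dehydrogenases at -0.08, and without iAsF1-M 3 the shuttle was at 0.19. These medians over few genes are descriptions.

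**Figure D4:**
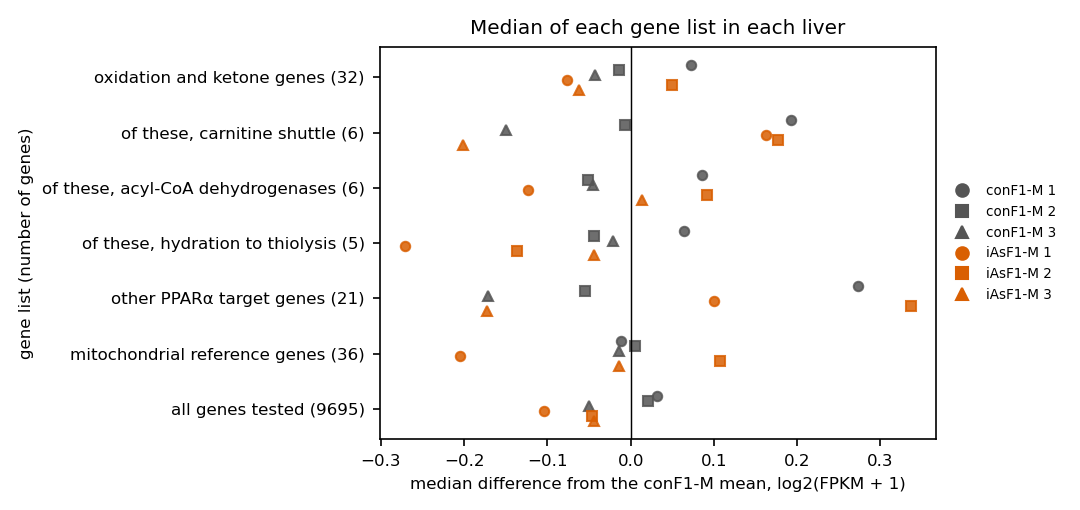
Median difference from the conF1-M mean, on log2(FPKM + 1), of each gene list in each of the 6 livers (conF1-M grey, iAsF1-M orange, sample number as the shape; numbers of genes tested in brackets). The conF1-M and iAsF1-M points overlap for the oxidation and ketone genes, and iAsF1-M 1 is high for the carnitine shuttle (0.16) and low for hydration to thiolysis (-0.27).

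Leaving out iAsF1-M 3, the iAsF1-M liver closest to the conF1-M livers, left 3 against 2 and called 73 genes over the whole table but still 0 of the 32. An unadjusted p under 0.05 was then reached by 6 of them, Sirt3, Pdk4, Slc22a5, Cpt1a, Echs1 and Hadh, against 16.9% of all genes, and the median of the list was -0.02.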

How the data were processed

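Livers of 3 conF1-M and 3 iAsF1-M males were compared, grouped by the sample labels. The authors made libraries from total RNA with a TruSeq kit, sequenced paired ends, filtered them for adapters and poor bases, and used HISAT2 for alignment to GRCm38. The deposited values are FPKM, rounded to 2 decimals. The program and annotation behind the FPKM are not given in the sources used here, and neither is a scaling between libraries. FPKM are shares of a library, so a few very abundant transcripts can shift all others.

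Of 16743 gene IDs, 16 on more than 1 line were left out, and 16706 of the 16727 used were paired with a name and position in GENCODE M21 (GRCm38). FPKM hold no counts. The steps between low values gave a rough depth, but only 53.4% to 58.7% of low values came within 0.15 of whole fragments, so no count test was used, although the authors used DESeq2 on counts that are not analysed here. The values were tested with limma 3.58.1 in R 4.3.3 (lmFit, eBayes with trend, two-sided, no block) on log2(FPKM + 1) over genes whose mean reached 1 FPKM, with Benjamini-Hochberg adjustment and a threshold of 0.05. The fit was checked on simulated data. Ratios within a liver were compared by an exact permutation test in Python 3.11.15. Promoter windows were from RefSeq (GRCm38.p6).

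The genes and lists were chosen with earlier results of these data known. Values in full were given for the most abundant gene and the gene with the smallest p in each step, and for genes with no overlap and an unadjusted p under 0.05; of the other lists, the 3 genes with the smallest p were named. Of the lists, 2 genes had no row and were not analysed here. Some other genes of the pathway are not reported here. The replicates are separate mice whose litters are not given, so p measures the spread between these mice only. The 17 alternatives tried were other pseudocounts, filters, scalings, variance models, library weights, a replicate block and leaving out each liver.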

Additional observations from a re-analysis of the deposited data

How the results depend on the processing

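No gene of the list passed the threshold under any of the 17 alternatives, and leaving out each liver in turn also gave 0 to 0. Over all genes the count was 6, with 3 when low values were not filtered, and 3 to 73 when each liver was left out: leaving out conF1-M livers 1, 2 and 3 gave 3, 3 and 13 genes, and leaving out iAsF1-M 3 gave 73. The number of the 32 genes that were higher was 12, and became 19 under quantile normalization and 23 under TMM-like scaling, and 8 to 19 when a liver was left out. The median of -0.05 became 0.017 under quantile normalization and 0.026 under TMM-like scaling, and lay between -0.08 and 0.02 without single livers.

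For the 13 genes named by the rule, 198 of 221 alternative log2 fold changes kept their sign and 23 did not, with adjusted p from 0.12 to 1.0. The filters, the variance models and the replicate block leave a log2 fold change as it is. Under these the sign could not turn, so the 198 overstate how steady the signs were. Under quantile normalization the sign turned for Ppara (0.0023), Acsl1 (0.080), Acadm (0.015) and Eci2 (0.072), and under TMM-like scaling for Ppara (0.018), Acsl1 (0.068), Acadm (0.033), Eci1 (0.0058), Eci2 (0.063) and Etfb (0.017). Library weights turned Acsl1 (0.0032) and Eci2 (0.0083). Without single livers the range was -0.12 to 0.011 for Ppara, -0.10 to 0.071 for Acsl1, -0.10 to 0.052 for Acadm, -0.11 to 0.0044 for Eci1, -0.055 to 0.024 for Eci2 and -0.15 to 0.051 for Etfb. The causes were not tested, beyond the removal of the common shift by the scalings themselves. The log2 ratio differed by -0.022 to 0.026 for Hadha to Hadhb, by -0.11 to 0.012 for Etfa to Etfb, by -0.13 to 0.0056 for Eci1 to Eci2, by 0.20 to 0.42 for Cpt1a to Cpt2 and by 0.02 to 0.18 for Acsl1 to Acsl5.

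With a replicate block 0 of the genes and 5 over the whole table passed, and the median was -0.05. The deviations of livers with the same number had a correlation of 0.167 for number 1, -0.10 for number 2 and -0.02 for number 3. The unmatched conF1-M 2 and iAsF1-M 3 had 0.168. These values did not show a pairing by number, and with 3 mice per group they cannot exclude one. With 3 mice per group the 95% interval of a log2 fold change reached 0.27 to either side in the median over the 32 genes (0.20 to 1.09) before any adjustment for the number of genes, so the adjusted test could miss differences larger than this.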

Other observations

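Genes that insulin is known to lower were listed for the feeding state of the livers. In iAsF1-M 8 of 9 tested were higher, while 30.4% of all genes tested were higher. The median of their log2 fold changes was 0.29 and became -0.01 without iAsF1-M 2. An unadjusted p under 0.05 was reached by 3, against 8.17% of all genes, and 0 passed the threshold. G6pc, the phosphatase that releases glucose, measured 91.7, 109.7 and 95.3 in conF1-M against 196, 287 and 180.4 FPKM in iAsF1-M, without overlap between groups. Its log2 fold change was 1.13 (limma, adjusted p = 0.28). By RT-qPCR of fasted and refed livers, the paper found no significant difference in G6pc between iAsF1-M and conF1-M. Igfbp1, a secreted binding protein of the insulin-like growth factors, measured 8.82, 19.97 and 14.2 in conF1-M against 72.5, 241 and 27.3 FPKM in iAsF1-M, and Gadd45g, a stress-response gene, measured 4.69, 4.39 and 5.74 in conF1-M against 6.0, 53.1 and 24.6 FPKM in iAsF1-M. In these 3 genes, named because their p was the smallest of the list, every iAsF1-M liver was above every conF1-M liver. This held for 2.37% of all genes tested.

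Of genes known to be raised by insulin and feeding, 9 were tested, 1 was higher and 8 were lower, with a median of -0.27. Of all genes tested 30.4% were higher, so most genes were lower too. An unadjusted p under 0.05 was reached by 1, Srebf1, against 8.17% of all genes, and 0 passed the threshold. This list stood highest in iAsF1-M 3 (median 0.47 from the conF1-M mean), and without that liver the median was -0.67. All 9, in both directions, then had an unadjusted p under 0.05, against 16.9% of all genes. The liver left out stood opposite to iAsF1-M livers 1 and 2 (-0.71 and -0.63), so its removal narrows the spread within the group. This count is therefore a description and no test. Without iAsF1-M 2 the median was -0.14. Srebf1, the regulator of lipid synthesis, measured 19.3, 22.6 and 18.7 in conF1-M against 8.16, 6.2 and 20.6 FPKM in iAsF1-M, and Me1, the malic enzyme, measured 88.4, 69.2 and 57.7 in conF1-M against 53.2, 45.98 and 73.97 FPKM in iAsF1-M. In both, iAsF1-M livers 1 and 2 were the lowest of all and iAsF1-M 3 was within the conF1-M range. Elovl6, a fatty acid elongase, was the gene that was higher, at 11.3, 12.4 and 11.4 in conF1-M against 17.5, 12.98 and 13.2 FPKM in iAsF1-M. It was also the only gene of this list whose groups did not overlap. Higher without overlap was thus 1 gene, against 2.37% of all genes tested, and lower without overlap were 0, against 11.8%. The iAsF1-M livers 1 and 2, lowest in Srebf1 and Me1, were those with the highest Cpt1a and Pdk4, and whether the feeding state differed between mice was not tested.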
